A study of Mus musculus with 36 samples.

Results

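The genes described here encode the enzymes that make cyclic AMP (cAMP) and cyclic GMP (cGMP), break them down, or carry out the main response to cAMP. They are the adenylyl cyclases (Adcy), the guanylyl cyclases (Gucy), the phosphodiesterases (Pde) and the catalytic and regulatory subunits of protein kinase A (PKA; Prkac and Prkar). Members were chosen by gene symbol alone, which gave 91 of the 45281 probes of the array, for 45 of its 30869 gene symbols. By family these were 10 adenylyl cyclases, 21 phosphodiesterases, 6 PKA subunits and 8 guanylyl cyclases. Pde6d, named for the delta subunit of PDE6, was counted as a phosphodiesterase by its symbol alone, whether or not its product hydrolyses a cyclic nucleotide.

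The study treated adult male mice, labelled C57BL/6J, once daily for 10 days, by intraperitoneal injection, with vehicle or with an inhibitor of histone deacetylases (HDACs), and took the brain 1 h after the last dose. The groups received vehicle, Cpd-60 at 45 mg/kg, SAHA at 25 mg/kg or CI-994 at 10 mg/kg. Cpd-60 is a benzamide selective for HDAC1 and HDAC2, SAHA (vorinostat) is a hydroxamic acid that inhibits several HDACs, and CI-994 is a class I inhibitor. RNA of the hippocampus (HIP), the nucleus accumbens (NAc) and the prefrontal cortex (PFC) was hybridised to 36 Illumina MouseWG-6 arrays, 3 per treatment and region. An array measured the combined RNA of 2 mice, and the 3 pools of a treatment supplied all 3 regions, so n = 3 counts pools and not mice. No group carried a genetic change. The doses differed between compounds, so the values of the compounds stand side by side and were not compared with each other.

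Adenylyl cyclases convert ATP to cAMP when stimulatory G proteins, or for some isoforms calcium and calmodulin, activate them. Binding of cAMP to the regulatory subunits of PKA frees its catalytic subunits, and phosphodiesterases end the signal by hydrolysing cAMP, cGMP or both. Soluble guanylyl cyclase, made of an alpha and a beta subunit, produces cGMP when nitric oxide binds it. In the striatum, whose ventral part is the NAc, dopamine acts on medium spiny neurons through receptors that raise or lower cAMP, and phosphodiesterases such as PDE10A and PDE1B are known to be abundant there.

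The arrays had median raw intensities between 82.2 and 108.3, with 31.9% to 43.3% of probes detected (detection p at most 0.01), and arrays of 1 group correlated at 0.970 to 0.994. Defining markers followed the region labels in vehicle mice. All 8 tested markers of medium spiny neurons were higher in NAc than in PFC, by a median of 3.05 on the log2 scale, and all 6 hippocampal markers were higher in HIP than in PFC, by a median of 1.34. Cortical markers were lower in NAc than in PFC for 5 of 6 and in HIP for 4 of 6. All 6 oligodendrocyte markers were higher in HIP and in NAc than in PFC, and 4 of 6 choroid plexus markers were higher in HIP than in PFC. Astrocyte markers were lower in NAc than in PFC for 4 of 6, and in HIP 3 were higher and 1 lower than in PFC. Mural cell markers were lower in HIP than in PFC for 4 of 5. In bulk tissue, fewer cells of a type and less RNA per cell cannot be told apart. The part of cell mixture in the differences between regions given here was not tested.

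The first question was how the enzymes differ between the regions without a drug. Of the 45 genes, 31 had a probe bright enough to test in the 9 vehicle arrays (in some region, a detection p no higher than 0.2 on every array). Differences are given as log2 of normalised intensity with the standard error (SE), and were called at an adjusted p under 0.05 in limma, adjusted over all probes tested. Between NAc and PFC, 16 of the 31 genes were called, 7 higher and 9 lower in NAc, where 21.7% of all genes tested were called (10.1% higher and 11.5% lower). Between HIP and PFC, 14 were called, 1 higher and 13 lower in HIP, with 27.4% of all genes called (13.2% higher and 14.1% lower). Between HIP and NAc, 15 were called, 4 higher and 11 lower in HIP, with 18.8% of all genes called (8.59% higher and 10.2% lower). Of the 31, 24 passed the detection filter in every region, 2 in 2 regions and 5 in 1. The median absolute difference of the members was 0.26, 0.29 and 0.38 in these comparisons, beside 0.13, 0.14 and 0.12 over all genes tested.

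By family, the phosphodiesterases tested (14 of 21) were called higher in NAc than in PFC for 5 genes and lower for 2, and by the brightest probe of each gene none was called higher in HIP than in another region. The adenylyl cyclases tested (8 of 10) went the other way in NAc, with 0 higher and 4 lower than in PFC. PKA subunits (5 of 6 tested) were lower in HIP than in PFC for 4 genes and lower in NAc for 3, with 1 higher in NAc. Among guanylyl cyclases (4 of 8 tested), 1 gene accounted for every call.

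**Figure D1:**
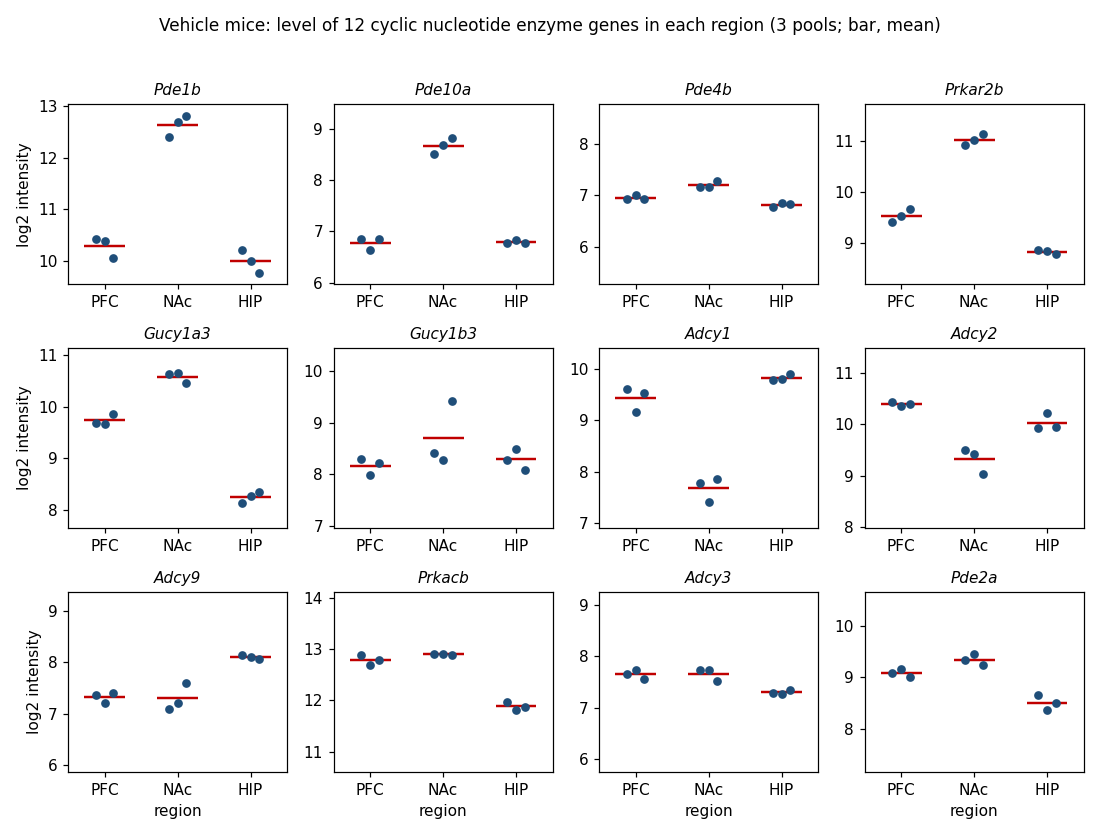
Log2 normalised intensity (vertical axis, each panel spanning the same range) of 12 member genes in the PFC, NAc and HIP of vehicle mice, with 1 point per pool and a bar at the mean of 3 pools. Pde1b, Pde10a, Prkar2b and Gucy1a3 had all NAc pools above those of the other regions, Adcy1 and Adcy2 had all NAc pools below, Adcy9 had all HIP pools above, and Prkacb, Adcy3 and Pde2a had all HIP pools below.

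The group of 7 genes with their highest level in NAc, called against both other regions, held 5 phosphodiesterases (Pde1b, Pde1c, Pde4b, Pde7b and Pde10a), 1 PKA subunit (Prkar2b) and 1 guanylyl cyclase subunit (Gucy1a3). Pde1b, a phosphodiesterase switched on by calcium and calmodulin, read 10.42, 10.38 and 10.04 in the vehicle pools of PFC, 12.40, 12.69 and 12.82 in NAc, and 10.21, 9.98 and 9.76 in HIP. The NAc pools lay far above all others, 2.36 above PFC (SE 0.14, limma adjusted p = 2.83e-06), which is 5.12-fold, and HIP was -2.65 from NAc (adjusted p = 1.11e-06). A second probe of Pde1b gave 2.43 for NAc against PFC. Across all 12 arrays of a region, whatever the treatment, Pde1b ranged from 12.16 to 12.92 in NAc, from 10.04 to 10.42 in PFC and from 9.44 to 10.21 in HIP.

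Pde10a, which hydrolyses both cAMP and cGMP, read 6.86, 6.63 and 6.86 in PFC, 8.50, 8.69 and 8.82 in NAc, and 6.77, 6.84 and 6.77 in HIP. PFC and HIP were near the limit of detection, and NAc was higher by 1.89 than PFC (SE 0.09, limma adjusted p = 6.03e-07), while HIP was -1.88 from NAc (adjusted p = 5.06e-07). No background was subtracted, so differences of such dim probes are understated. Pde7b, specific for cAMP, was not detected in any of the 12 arrays of PFC or of HIP and was detected in all 12 of NAc. Its vehicle pools read 7.25, 7.40 and 7.55 in NAc, which was at least 1.57-fold higher than in PFC (limma adjusted p = 4.49e-05) and at least 1.62-fold higher than in HIP (adjusted p = 4.80e-05). Pde7b passed the detection filter through NAc alone, the region where it is high, so these p-values are not independent of the filter. Pde1c, detected in 1 of 3 vehicle pools in PFC and in HIP, was higher in NAc by 0.81 than in PFC (adjusted p = 4.55e-05). The cAMP-specific Pde4b showed the smallest of these differences, 0.24 above PFC (adjusted p = 0.0167), with HIP -0.38 from NAc (adjusted p = 0.0015).

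Prkar2b, the type II beta regulatory subunit of PKA, read 9.42, 9.53 and 9.67 in PFC, 10.91, 11.01 and 11.13 in NAc, and 8.88, 8.85 and 8.79 in HIP. The regions did not overlap, and NAc was 1.48 above PFC (SE 0.08, limma adjusted p = 1.33e-06), with HIP -0.70 from PFC (adjusted p = 0.000295) and -2.18 from NAc (adjusted p = 1.19e-07). A second probe of Prkar2b was not detected in PFC or HIP, passed the filter through NAc alone and was not called (adjusted p = 0.0598 for NAc against PFC).

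Gucy1a3, an alpha subunit of soluble guanylyl cyclase, read 9.69, 9.66 and 9.85 in PFC, 10.64, 10.66 and 10.46 in NAc, and 8.12, 8.27 and 8.34 in HIP. It fell in steps from NAc to PFC to HIP with no overlap, by 0.85 between NAc and PFC (limma adjusted p = 7.69e-05) and with HIP -2.34 from NAc (SE 0.08, adjusted p = 1.03e-07). The other 3 probes of Gucy1a3 lay in the same direction, with HIP -1.50, -0.94 and -1.50 from NAc. Its partner subunit Gucy1b3 read 8.30, 7.99 and 8.21 in PFC, 8.41, 8.27 and 9.41 in NAc, and 8.28, 8.49 and 8.09 in HIP. These values overlapped, and NAc against PFC gave 0.53 (SE 0.25, adjusted p = 0.168). In NAc, Gucy1b3 lay between 8.27 and 8.72 on the first of the 2 BeadChips that held the region and between 8.71 and 9.41 on the second. The alpha subunit Gucy1a2 was close to background, at 6.58, 6.65 and 6.82 in PFC, 6.68, 6.72 and 6.69 in NAc, and 6.62, 6.53 and 6.64 in HIP, and the remaining subunit Gucy1b2 had no probe bright enough to test.

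The group with the lowest level in NAc held only adenylyl cyclases: Adcy1 and Adcy8, both stimulated by calcium and calmodulin, and Adcy2. Adcy1 read 9.61, 9.16 and 9.54 in PFC, 7.79, 7.41 and 7.85 in NAc, and 9.79, 9.80 and 9.90 in HIP. NAc lay apart from both, -1.75 from PFC (SE 0.14, limma adjusted p = 1.41e-05), and HIP was 2.15 above NAc (adjusted p = 3.08e-06), whereas HIP against PFC gave 0.39, which missed the threshold (adjusted p = 0.0566) and passed it with the pool as a replicate block (adjusted p = 0.0202). Both other tested probes of Adcy1 were dim and called in no region comparison. They gave -0.11 and -0.21 for NAc against PFC and 0.04 and 0.06 for HIP against NAc. For HIP against PFC they gave -0.07 and -0.15, opposite in sign to the brightest probe. Adcy2 read 10.43, 10.35 and 10.40 in PFC, 9.49, 9.42 and 9.04 in NAc, and 9.92, 10.22 and 9.95 in HIP, without overlap between regions, and NAc was -1.07 from PFC (SE 0.12, adjusted p = 0.000169). HIP was -0.36 from PFC, called without the replicate block (limma adjusted p = 0.0489) and not with it (adjusted p = 0.0507). Adcy8 was -0.69 from PFC in NAc (adjusted p = 0.00153) and 0.41 higher in HIP than in NAc (adjusted p = 0.0263). By the brightest probe of each gene, Adcy9 alone was called higher in HIP than in both other regions. It read 7.38, 7.21 and 7.41 in PFC, 7.10, 7.20 and 7.61 in NAc, and 8.14, 8.10 and 8.06 in HIP, with HIP 0.77 above PFC (SE 0.12, adjusted p = 0.00143) and 0.80 above NAc (adjusted p = 0.00107).

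Lowest in HIP, called against both other regions, were the 4 genes Prkacb, Pde2a, Pde4d and Adcy3. Prkacb, the beta catalytic subunit of PKA, read 12.88, 12.69 and 12.79 in PFC, 12.91, 12.90 and 12.87 in NAc, and 11.97, 11.81 and 11.88 in HIP. All HIP pools were below the rest, with HIP -0.90 from PFC (limma adjusted p = 2.82e-05) and -1.01 from NAc (SE 0.07, adjusted p = 4.92e-06), and NAc against PFC gave 0.11 (adjusted p = 0.314). Pde2a, which cGMP stimulates to hydrolyse cAMP, was -0.58 from PFC and -0.84 from NAc in HIP (adjusted p = 0.00129 and 9.97e-05). Pde4d was -0.42 from PFC and -0.50 from NAc (adjusted p = 0.00432 and 0.00178) and was detected in 1 of 3 HIP pools. Adcy3, the cyclase of olfactory neurons and of neuronal cilia, was -0.35 from PFC and -0.36 from NAc (adjusted p = 0.00675 and 0.0074).

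The other catalytic subunit, Prkaca, showed another order, reading 10.79, 10.96 and 10.50 in PFC, 10.05, 10.23 and 10.45 in NAc, and 10.75, 10.86 and 10.35 in HIP. NAc was -0.51 from PFC (limma adjusted p = 0.0459) with no overlap, a call lost with the pool as a replicate block (adjusted p = 0.0534), and its second probe overlapped and was not called (-0.35, adjusted p = 0.302). HIP against PFC gave -0.10 (limma adjusted p = 0.676). Prkar1a and Prkar1b, the type I regulatory subunits, belonged to the group of 5 genes higher in PFC than in both other regions, with Adcy6, Pde1a and Pde4a. Pde1a belonged there by its brightest probe alone. Prkar1a read 12.32, 12.50 and 12.33 in PFC, 12.10, 12.14 and 12.23 in NAc, and 12.07, 12.07 and 11.96 in HIP, with NAc -0.23 and HIP -0.35 from PFC (adjusted p = 0.0471 and 0.00559). With the replicate block the first was not called (adjusted p = 0.0722). Prkar1b read 10.63, 10.63 and 10.37 in PFC, 9.73, 9.59 and 9.94 in NAc, and 10.05, 9.82 and 9.62 in HIP, with NAc -0.79 and HIP -0.71 from PFC (adjusted p = 0.00174 and 0.00302). Prkar2a, the type II alpha subunit, was detected in 0 of 36 arrays.

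Adcy6 was -0.68 from PFC in NAc and -0.45 in HIP (limma adjusted p = 0.00296 and 0.0202), and Pde4a was -0.69 and -0.48 (adjusted p = 0.00549 and 0.0255). Adcy4 was called only between HIP and PFC, at -0.29 (adjusted p = 0.0235). With the BeadChip as a random block, HIP against PFC was no longer called for Adcy6 (limma adjusted p = 0.0522), Pde4a (0.0709) or Adcy4 (0.0721), nor for Adcy2 (0.0917). By the brightest probe of each, the remaining 9 genes tested were called in no region comparison: Adcy7, Gucy1a2, Gucy1b3, Gucy2g, Pde3a, Pde5a, Pde6d, Pde7a and Pde11a. Another probe of Pde6d was not detected in PFC and did not pass the filter there. It was called at least 1.28-fold higher in HIP than in PFC (limma adjusted p = 0.00758), a p-value not independent of the filter. The brightest probe gave -0.03, and the remaining probes gave -0.18 and -0.08 and were not called. A further 14 genes had no probe bright enough to test. They were Prkar2a, Adcy5 and Adcy10, the guanylyl cyclases Gucy1b2, Gucy2c, Gucy2e and Gucy2f, and the phosphodiesterases Pde3b, Pde4c, Pde6a, Pde6b, Pde6c, Pde8b and Pde9a. Adcy5, known as the main cyclase of the striatum, was detected in 1 of 36 arrays, so its probe gave no level here. Gucy2e and Pde8b were bright enough only in the drug comparison of NAc, and Pde3b only in that of PFC.

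Pde1a, another phosphodiesterase that calcium and calmodulin activate, was measured by 3 bright probes whose order of regions differed. The brightest probe put HIP at -0.52 from PFC (limma adjusted p = 0.0164), and a repeat in mice given Cpd-60, SAHA and CI-994 gave -0.49, -0.47 and -0.36. The second, with vehicle pools of 8.79, 8.54 and 9.22 in PFC and 9.55, 9.44 and 9.31 in HIP, put HIP 0.58 above PFC (adjusted p = 0.0431) and 0.68 above NAc (adjusted p = 0.0307), and the third, with 7.78, 7.76 and 8.26 in PFC and 8.83, 8.97 and 8.40 in HIP, put it 0.80 above (adjusted p = 0.0287). In drug-treated mice the second probe gave 0.72, 0.49 and 0.51 and the third 1.06, 0.67 and 0.72, so both kept their sign in every treatment. Few of these repeats were called for HIP against PFC. The second probe was called with no drug (limma adjusted p = 0.121, 0.0974 and 0.224). The third was called with Cpd-60 alone (adjusted p = 0.0255) and the brightest with SAHA alone (adjusted p = 0.024). In NAc these probes separated by BeadChip, the third lying between 7.43 and 7.81 on the first BeadChip and between 8.35 and 8.71 on the second. Between NAc and PFC in vehicle mice the brightest probe gave -0.76 (limma adjusted p = 0.00296). There the second probe gave -0.10 (adjusted p = 0.758) and the third 0.09 (adjusted p = 0.836), and neither was called with any drug. RefSeq lists 4 transcript starts for Pde1a, and which transcripts the probes read was not tested.

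**Figure D2:**
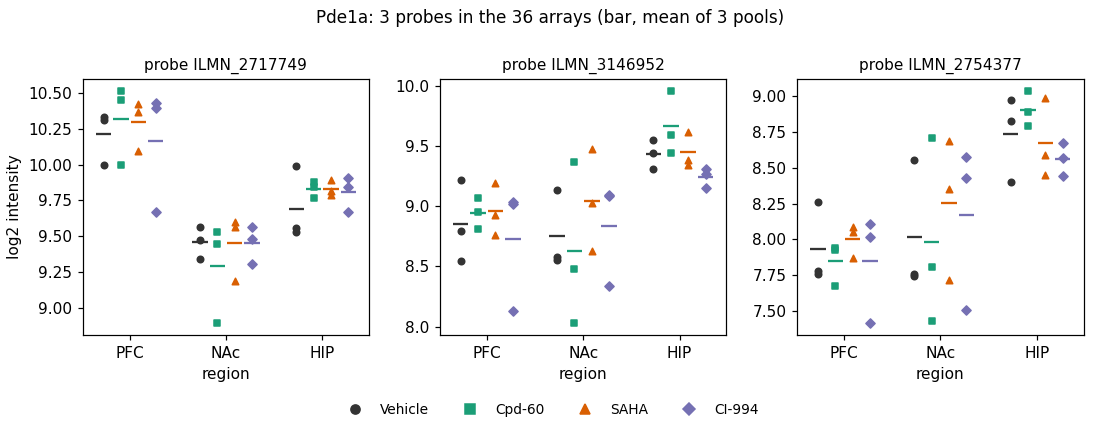
Log2 normalised intensity of the 3 bright probes of Pde1a in each region and treatment, 1 point per pool and a bar at the mean of 3 pools, with a separate vertical scale in each panel. The probe on the left has every treatment mean of HIP below that of PFC, and the other 2 have every treatment mean of HIP above that of PFC.

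The drug-treated mice, which are different animals, gave the region comparison again. Of the 16 genes called between NAc and PFC in vehicle mice, 11 were called in the same direction with each of the 3 drugs, where 11.9%, 16.2% and 18.3% of all genes were called with Cpd-60, SAHA and CI-994. The 11 were Adcy1, Adcy2, Adcy6, Adcy8, Pde1a, Pde1b, Pde1c, Pde7b, Pde10a, Prkar1b and Prkar2b, with Pde1a by its brightest probe alone. Of the 16, all but Pde4b kept the sign in every drug. Of the 15 genes called between HIP and NAc, 11 were called again with each drug and all 15 kept their sign, with 10%, 14% and 11.4% of all genes called. Between HIP and PFC, 6 of 14 were called again with each drug and all 14 kept their sign, with 16.6%, 22.8% and 15% of all genes called. The 6 were Adcy6, Adcy9, Gucy1a3, Pde4d, Prkacb and Prkar1b. The shares given beside these repeat counts are over all genes tested in each drug, whether or not called in vehicle mice. They are therefore not a measure of how often a vehicle call repeats. That share, over all genes called in vehicle mice, was not computed. Pde1b in NAc exceeded PFC by 2.37, 2.21 and 2.45 with Cpd-60, SAHA and CI-994, and Prkar2b by 1.47, 1.40 and 1.52. Pde10a exceeded PFC by 1.74, 1.39 and 1.59.

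**Figure D3:**
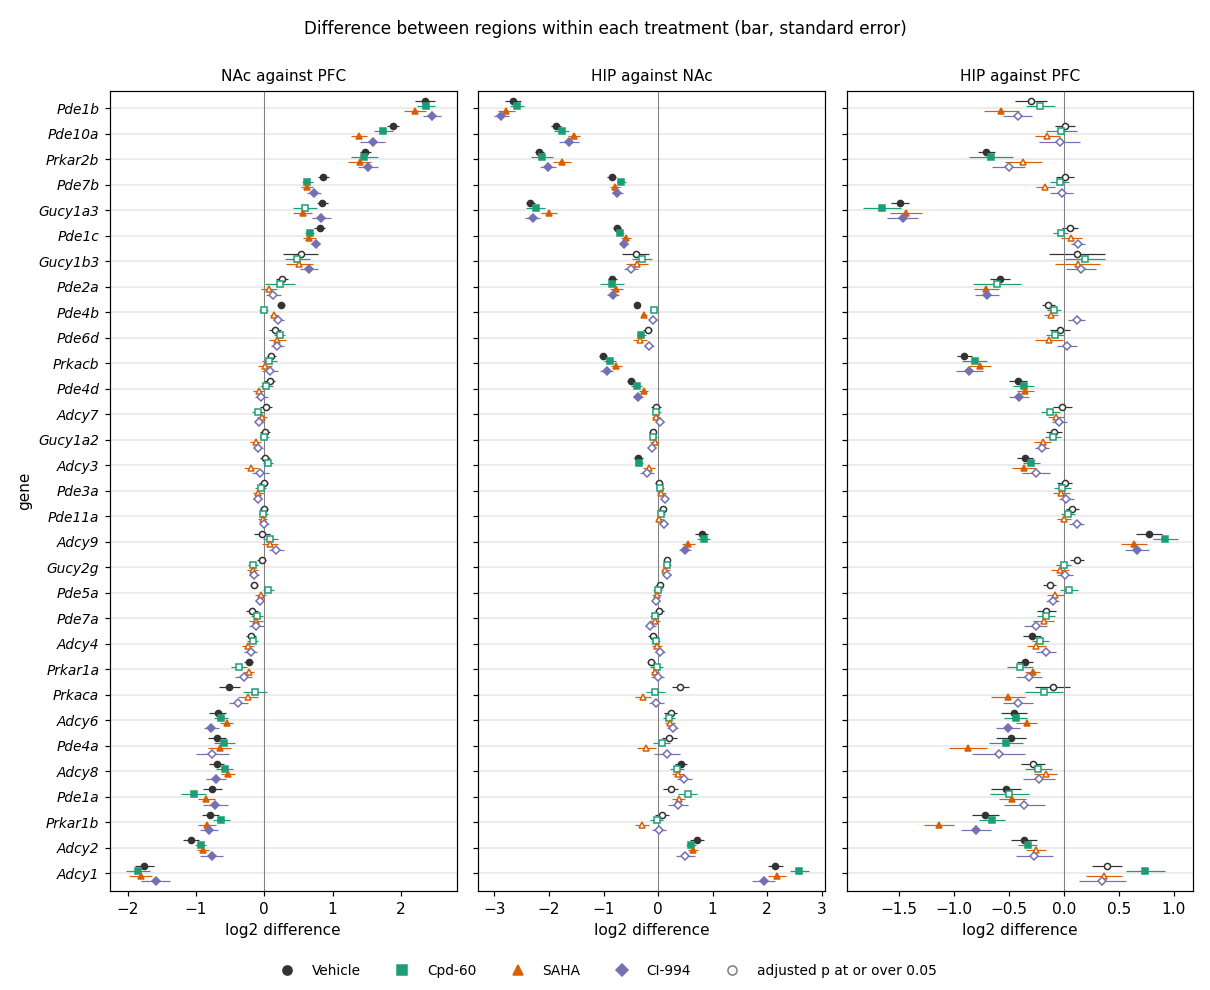
Log2 difference between regions (horizontal axis, with the SE as a bar) for each of the 31 member genes tested, in the 4 treatments, filled where the adjusted p was under 0.05. From the top left, Pde1b, Pde10a and Prkar2b exceeded PFC in NAc by more than 1 in every treatment, and Adcy1 and Adcy2 at the bottom were below PFC.

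Promoter sequences of genes highest in NAc (all but Pde1c and Pde7b) are shown beside those of the PKA subunits Prkaca, Prkacb and Prkar1a. They were searched since cAMP acts on transcription through the cAMP response element (CRE), which CREB binds. RefSeq promoters (GRCm38.p6, 250 bases before to 50 bases after each start) were found for 36 of the 45 members, giving 75 promoters. The full element TGACGTCA, searched on both strands, was in 2 of the 75 (2.67%), both of Prkar1a, beside 1.79% of 32851 promoters of all genes. Its core TGACG, which lies within the full element, was in 17 (22.7%) on either strand, beside 20.8% of all. The core was found for 15 of the 36 genes (41.7%, with 2.08 promoters a gene), beside 23% of all genes (with 1.22 promoters a gene). Of the 15, 5 were PKA subunits (Prkaca, Prkacb, Prkar1a, Prkar1b and Prkar2a), and of the 7 genes highest in NAc only Pde4b was among the 15. A gene without a RefSeq promoter could not be searched. The sequences run 5′ to 3′ over the 120 bases before the first listed start (for Prkar1a, the 30 bases around the full element), with the core or full element in capitals on either strand. A match is a description and no site of binding, and no match says only that these letters are not in the window.
Pde1b, chr15:103502914-103503033, plus strand: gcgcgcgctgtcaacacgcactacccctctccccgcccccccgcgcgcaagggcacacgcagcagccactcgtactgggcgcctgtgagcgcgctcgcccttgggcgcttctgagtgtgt
Pde10a, chr17:8801625-8801744, plus strand: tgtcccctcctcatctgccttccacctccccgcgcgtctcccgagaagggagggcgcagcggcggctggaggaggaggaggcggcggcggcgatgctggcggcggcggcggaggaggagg
Gucy1a3 (Gucy1a1 in RefSeq), chr3:82145651-82145770, minus strand: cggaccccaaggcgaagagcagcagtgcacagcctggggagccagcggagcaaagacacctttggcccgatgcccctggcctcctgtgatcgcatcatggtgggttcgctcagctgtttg
Prkar2b, chr12:32061278-32061397, minus strand: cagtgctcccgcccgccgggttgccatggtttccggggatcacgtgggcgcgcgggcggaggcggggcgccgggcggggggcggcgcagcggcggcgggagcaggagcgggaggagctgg
Pde4b, chr4:102421435-102421554, plus strand: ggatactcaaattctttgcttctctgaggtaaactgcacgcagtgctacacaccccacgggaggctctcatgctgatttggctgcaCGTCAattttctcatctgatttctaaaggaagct
Prkaca, chr8:83972858-83972977, plus strand: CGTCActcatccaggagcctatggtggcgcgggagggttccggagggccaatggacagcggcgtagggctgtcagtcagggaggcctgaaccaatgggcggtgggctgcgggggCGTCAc
Prkacb, chr3:146812947-146813066, minus strand: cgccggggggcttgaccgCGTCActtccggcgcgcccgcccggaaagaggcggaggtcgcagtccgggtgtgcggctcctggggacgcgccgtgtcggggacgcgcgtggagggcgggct
Prkar1a, chr11:109650889-109650918, plus strand: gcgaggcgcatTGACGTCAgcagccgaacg

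Other genes of the pathway were taken from a list of 48, of which 46 were on the array and 38 were tested. NAc against PFC gave 8 higher and 5 lower, HIP against PFC 5 higher and 12 lower, and HIP against NAc 5 higher and 13 lower. Over all genes these shares were 10.1% higher and 11.5% lower, 13.2% and 14.1%, and 8.59% and 10.2%. Among G protein subunits, Gng7 and Gnal, which form the G protein that activates adenylyl cyclase in the striatum, were higher in NAc than in PFC by 2.82 and 2.14. Among phosphoproteins that PKA acts on, Ppp1r1b (DARPP-32) was 3.85 higher in NAc than in PFC, and Arpp21 was 1.91 higher. Anchoring proteins, which place PKA in the cell, were mixed, with Akap9 1.22 higher and Akap7 -0.91 from PFC in NAc. Among PKA inhibitors, Pkia was 0.30 higher in NAc than in PFC and Pkig was -0.49 from PFC in HIP. Of the other effectors, Prkg2, a cGMP-dependent kinase, was -0.86 from PFC in HIP, and Rapgef4 (EPAC2) was -0.60 from PFC in NAc. Of the nitric oxide synthases and natriuretic peptide receptors, Npr3 was -0.74 from PFC in NAc and Npr2 0.42 higher in HIP. Of 5 genes of CREB and its relatives and coactivators, Crebbp alone was called, at -0.32 in HIP against NAc. All of these named differences had a limma adjusted p under 0.05.

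The second question was whether 10 days of an HDAC inhibitor changed the levels within a region. Of 273 tests of member genes (30 genes in PFC, 32 in NAc and 29 in HIP, with 3 drugs each), 0 passed an adjusted p under 0.05 in limma, and 7 had an unadjusted p under 0.05, 2 with Cpd-60, 4 with SAHA and 1 with CI-994. Over all genes the share under that p was 5.39%, 5.02% and 5.52% for Cpd-60 in PFC, NAc and HIP, 2.21%, 2.2% and 9.79% for SAHA, and 4.1%, 2.05% and 3.23% for CI-994, and 0% passed adjustment. With a stricter filter, a detection p of at most 0.01, Cpd-60 gave 1 in place of 2. The tested probe of Gucy2e in NAc, detected in 0 of 36 arrays, passed the filter through the Cpd-60 pools alone. These pools read 6.69, 6.64 and 6.58 beside 6.53, 6.52 and 6.47 with vehicle, so the p-value of Gucy2e is not independent of the filter. The differences from vehicle lay within 0.3 on the log2 scale in 267 of the 273, and the median SE was 0.10. The largest absolute difference was 0.24 with Cpd-60, 0.48 with SAHA and 0.33 with CI-994. By a nominal rule of 1.2-fold at an unadjusted limma p under 0.05, Cpd-60 gave 0 of 91, SAHA 4 and CI-994 0. Analysis of variance with Tukey's test at 1.2-fold, the kind of rule the study used, gave 0 for each drug. It was run here over all 4 treatments, whereas the study's own test covered 3 treatment groups. The share of all genes past the nominal rule was 1.22%, 1.96% and 1.62% for Cpd-60 in PFC, NAc and HIP, 0.213%, 0.548% and 3.51% for SAHA, and 0.722%, 0.397% and 0.685% for CI-994. A p above the threshold does not show that a level stayed the same. For Prkar2b in NAc, for example, the 95% interval of the difference from vehicle ran from -0.50 to 0.19 with Cpd-60, from -0.47 to 0.23 with SAHA and from -0.46 to 0.24 with CI-994.

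The 4 genes past the nominal rule with SAHA were all lower, Pde10a in NAc and Prkaca, Prkar1b and Pde1b in HIP, and none survived adjustment. Of all genes, 0.373% were lower by this rule in NAc and 1.9% in HIP. Pde10a in NAc read 8.34, 8.24 and 7.99 with SAHA beside 8.50, 8.69 and 8.82 with vehicle, 8.94, 8.60 and 8.32 with Cpd-60 and 8.87, 8.45 and 8.00 with CI-994. The SAHA pools lay below the vehicle pools and overlapped the others, and the difference from vehicle was -0.48 (95% interval -0.95 to -0.01, SE 0.21). Of all genes in NAc, 7.38% had their 3 SAHA pools on one side of the 3 vehicle pools. With the BeadChip as a block the difference was -0.39 and its unadjusted p was no longer under 0.05. Over the same arrays the summed intensity of the 8 medium spiny neuron markers was 10911.6 to 14967.5 with SAHA and 14323.5 to 16547.1 with vehicle (0 of 8 past the nominal rule), and 2 of 6 astrocyte markers passed it, both higher, with a sum of 9634 to 10701.5 beside 7862.9 to 9403.6. Their part in the result was not tested.

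In HIP, Prkar1b read 9.56, 9.43 and 9.47 with SAHA beside 10.05, 9.82 and 9.62 with vehicle, a difference of -0.34 (SE 0.15, limma adjusted p = 0.530) without overlap. Of all genes in HIP, 20.1% had the SAHA and vehicle pools apart. Prkaca read 10.40, 10.11 and 10.00 beside 10.75, 10.86 and 10.35, and Pde1b read 9.91, 9.70 and 9.44 beside 10.21, 9.98 and 9.76. Both overlapped vehicle, with differences of -0.48 (SE 0.17, limma adjusted p = 0.503) and -0.30 (SE 0.13, limma adjusted p = 0.527). The second probe of each gave -0.40 for Prkaca and -0.35 for Pde1b. SAHA replicates 2 and 3 of HIP were dim before normalisation, with 95th percentiles of 437.7 and 452 beside 686.4 to 839.6 in vehicle, and lay on the second BeadChip, where replicate 3 was the only vehicle array. Without these arrays Prkaca was -0.26, Prkar1b -0.27 and Pde1b -0.07, from 1 SAHA pool, so these are values with no test. With the BeadChip as a block Prkaca was -0.34 and still past the nominal rule, while Prkar1b at -0.26 and Pde1b at -0.21 were not. In the HIP arrays 3 of 6 oligodendrocyte markers passed the nominal rule, all lower with SAHA, with a sum of 21461.3 to 23964.6 beside 24861.3 to 27886.3, and their part in the result was not tested.

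**Figure D4:**
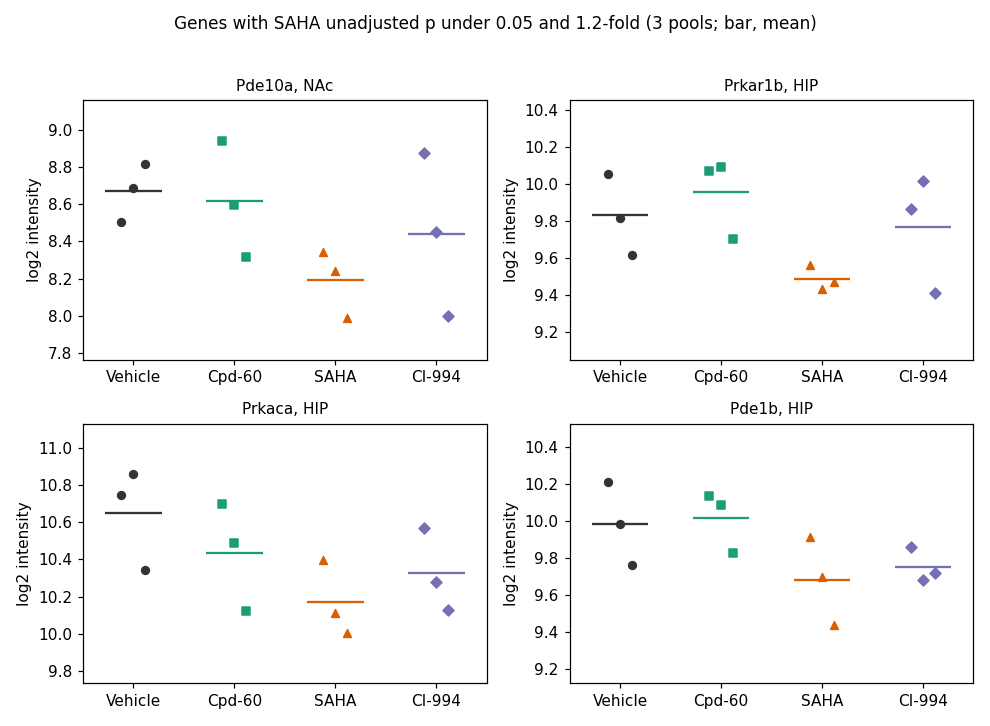
Log2 normalised intensity of the 4 genes past 1.2-fold and an unadjusted p under 0.05 with SAHA, in the region concerned, by treatment, with 1 point per pool and a bar at the mean of 3 pools. The SAHA pools lie below every vehicle pool for Pde10a in NAc and Prkar1b in HIP, and overlap vehicle for Prkaca and Pde1b in HIP.

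Smaller differences with the groups apart were seen for Pde4b, one of the cAMP-specific phosphodiesterases that rolipram inhibits. In NAc it read 6.96, 6.98 and 7.02 with Cpd-60 beside 7.16, 7.17 and 7.27 with vehicle, a difference of -0.21, and 9.7% of all genes had these groups apart. In HIP it read 7.02, 7.04 and 6.98 with CI-994 beside 6.77, 6.84 and 6.83 with vehicle, a difference of 0.20, with 9.57% of all genes apart. Neither reached 1.2-fold, and the probe is dim. When the drug effect was tested for a difference between regions in the 27 member genes bright enough in all of them, 0 passed adjustment for any drug. At an unadjusted p under 0.05, Pde4b was the 1 gene for Cpd-60 and for CI-994, and Prkaca the 1 gene for SAHA, with 2.06%, 1.42% and 3.97% of all genes below that p for Cpd-60, CI-994 and SAHA.

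Among the other pathway genes, 0 passed adjustment with any drug in limma. By the nominal rule, Akap9 was lower in NAc with Cpd-60 and with SAHA (-0.47 and -0.57, against the same vehicle arrays), Akap12 was 0.39 higher with Cpd-60, and Akap7 was 0.27 higher and Arpp21 -0.32 with SAHA. In HIP, Arpp21 was 0.41 higher with SAHA, whose arrays there include the dim replicates described above. No pathway gene passed the rule in PFC or with CI-994. The pathway genes tested were 40 in PFC, 39 in NAc and 39 in HIP, and the shares of all genes past this rule are given above.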

How the data were processed

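Gene expression was measured with Illumina MouseWG-6 BeadChips in 36 samples, each RNA pooled from 2 mice. The authors deposited a table of non-normalised intensity per probe with a detection p-value per array. For their own analysis the authors used GeneSpring with quantile normalisation, analysis of variance and Tukey's test at 1.2-fold. Here the deposited intensity of all 36 arrays was quantile normalised together, floored at 1 and put on the log2 scale, without background subtraction, so differences of dim probes are understated. Probes were tested where every array of some group gave a detection p-value no higher than 0.2, with limma 3.58.1 in R 4.3.3, with Benjamini-Hochberg adjustment over all probes tested: 22606 for the vehicle regions (9 arrays), 22156, 23242 and 23275 for the drugs in PFC, NAc and HIP (12 arrays each), and 19447 for the difference of a drug effect between regions (36 arrays, pool as a random block). The script was tested on simulated data.

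A gene is given by its brightest tested probe. Pool values are given for genes differing by at least 1 log2 unit between vehicle regions, for drug differences past a nominal rule (unadjusted limma p under 0.05 and 1.2-fold), and for PKA and soluble guanylyl cyclase subunits. Pathway genes are named for the 2 largest called differences of a list. Pde4b, Adcy9, Pde7b, the Pde1a probes and the SAHA genes with overlapping pools were added after their values were seen. The members and lists were chosen with earlier results of these data known.

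Pools gave all regions, so pool numbers pair the regions. Over 36 such pairs the deviations from the group means correlated at a median of -0.017 (-0.48 to 0.59). In the main fits the pool entered as a block only where a drug effect was tested between regions. The region comparisons had no block in the main fit, and their counts with the pool as a block are given below. Drug and vehicle pools of the same number came from different mice. Over 27 such pairs the deviations correlated at a median of 0.18 (-0.45 to 0.73). In every region replicate 1 lay on the first BeadChip and replicate 3 on the second, and the cause of the correlation was not tested. Each BeadChip held 1 region, and each region lay on 2 BeadChips, so BeadChip and region cannot be told apart. One Cpd-60 pool carried different mouse numbers in its title and description, and the title was used.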

Additional observations from a re-analysis of the deposited data

How the results depend on the processing

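Region differences of at least 1 on the log2 scale kept their direction and their call in all 168 combinations of gene and setting. The sign of Pde1a between HIP and PFC turned, to 0.21, when its probes were averaged. The counts of 14, 16 and 15 genes called for HIP against PFC, NAc against PFC and HIP against NAc were 14, 14 and 15 with the pool as a replicate block (without Adcy2 and with Adcy1 in the first, without Prkaca and Prkar1a in the second) and 10, 14 and 15 with the BeadChip as a random block. CI-994 arrays in place of vehicle gave 7 for HIP against PFC. Leaving out 1 pool gave 5 to 16, 11 to 16 and 11 to 18. For HIP against PFC the count was 5 without vehicle replicate 2 and 7 without vehicle replicate 1.

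The counts past the nominal rule (0 for Cpd-60, 4 for SAHA and 0 for CI-994) became 5, 2 and 1 with background correction from the detection p-values. SAHA gave 1 with the BeadChip as a block, 0 with the methods' analysis of variance and Tukey's test, and 2 without its replicates 2 and 3 of HIP (chosen after seeing the data). The replicate block gave 0, 4 and 1. Leaving out 1 pool gave 0 to 3 for Cpd-60, 0 to 4 for SAHA and 0 to 4 for CI-994. SAHA gave 0 without SAHA replicate 3 and 1 without vehicle replicate 1, vehicle replicate 2 or Cpd-60 replicate 2. CI-994 gave 4 without CI-994 replicate 1.

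The drug effect differed between regions at an unadjusted p under 0.05 for 1 gene with each drug. Cpd-60 gave 2 with background correction, 2 with no filter and 3 with the BeadChip as a term. SAHA gave 0 with probes averaged, 2 without the CI-994 arrays and 2 with a fixed replicate block. Leaving out 1 pool gave 1 to 2 for Cpd-60, 0 to 3 for SAHA and 1 to 4 for CI-994. The cause of these changes was not tested. With 3 pools per group and 14 genes too dim to test, small differences were not detectable.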
